A study of Homo sapiens with 43 samples.

Results

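The 8 loci described here, UCK2, SNTB1, NKD1, HIPK2, THSD4, NRXN3, CADM1 and NEBL, were selected on histone H3 lysine 27 acetylation (H3K27ac), whose peaks covered more of them in the lung squamous cell carcinoma lines LK2 and NCI-H520 than in other lines of the same series. Each locus was taken as the gene's span on hg19 with 20 kb added on either side, giving 8 windows of 124 to 1734 kb and 4068 kb in all. The spans, to the nearest kb on hg19, are chr1:165797001-165881000 (UCK2), chr8:121548001-121826000 (SNTB1), chr16:50582001-50675000 (NKD1), chr7:139246001-139478000 (HIPK2), chr15:71434001-72076000 (THSD4), chr14:78637001-80331000 (NRXN3), chr11:115044001-115375000 (CADM1) and chr10:21069001-21463000 (NEBL). By RefSeq (GRCh38.p14), other protein-coding genes lie within 20 kb of SNTB1 (MTBP), NKD1 (SNX20) and HIPK2 (CLEC2L and TBXAS1), so peaks in those windows need not belong to the named gene. Of the 60710 bins of 50 kb on chromosomes 1 to 22 and X, 88 overlap a window. The acetylation of LK2 and NCI-H520 against the other lines therefore chose the loci, and it is given below as a description with no test.

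Chromatin immunoprecipitation with sequencing (ChIP-seq) of H3K27ac was available for 13 unmodified lines, for which no treatment is listed. LK2 and NCI-H520 have 2 H3K27ac libraries each and also have ChIP-seq of the transcription factors Sox2 and Brn2. HCC95, KNS62 and HCC2814 have Sox2 but no Brn2 ChIP-seq, and the other 8 lines (Calu-1, EBC-1, HARA, HCC2279, HCC2450, LC-1/SQSF, NCI-H2887 and SQ-1) have H3K27ac alone, with 1 library per line and target. LK2_GFP and LK2_DNp63 are derivatives of LK2 by their names, each with 1 library of H3K27ac and 1 of Sox2, and LK2_DNp63 also with 1 of p63; the labels give no construct, promoter or clone for either. DNp63 is the usual name of the p63 isoform that lacks the amino-terminal activation domain and prevails in basal and squamous epithelium, and GFP is a fluorescent protein commonly used as its control. The sets say what was measured in a line, not which factors it expresses, and nothing in the labels says that libraries came from separate cultures, so the spread between libraries may be technical.

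H3K27ac lies on nucleosomes of active promoters and enhancers, and long, closely packed runs of it are typical of enhancer clusters near genes of a cell's identity. Sox2 keeps stem and progenitor cells undifferentiated and its gene is frequently amplified in squamous lung tumours, Brn2 (POU3F2) is a POU-domain factor of neural progenitors, and factors of these families can bind neighbouring sites on DNA. The title of the series asks about a kind of squamous lung tumour marked by both. Of the 8 genes, NRXN3 encodes a presynaptic adhesion protein of the neurexin family, CADM1 an immunoglobulin-family cell adhesion molecule and THSD4 a secreted protein of the extracellular matrix. SNTB1 encodes a syntrophin, an adaptor of the dystrophin complex at the membrane, and NEBL encodes nebulette, an actin-binding protein of the Z-disc. NKD1 encodes an inhibitor of Wnt signalling that binds Dishevelled, HIPK2 a nuclear serine/threonine kinase, and UCK2 a uridine-cytidine kinase of pyrimidine salvage.

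Promoter sequences are shown for UCK2 and NRXN3 as examples of opposite ends in the data, each tied with other loci. A peak lay within 2 kb of the lower-coordinate end of the UCK2 span in 13 of 13 lines, and within 2 kb of the lower end of the NRXN3 span in 0 of 13. The RefSeq table of GRCh38.p14 promoters held 12 starts for 4 of the 8 loci (UCK2, THSD4, NRXN3 and NEBL), and held none for SNTB1, NKD1, HIPK2 and CADM1. The 250 bases upstream of the UCK2 start (GRCh38 chr1:165827364-165827613, + strand), of the first NRXN3 start (GRCh38 chr14:78170123-78170372, + strand) and of an inner NRXN3 start (GRCh38 chr14:79279130-79279379, + strand) read, 5′ to 3′, with motif matches in capitals:
UCK2: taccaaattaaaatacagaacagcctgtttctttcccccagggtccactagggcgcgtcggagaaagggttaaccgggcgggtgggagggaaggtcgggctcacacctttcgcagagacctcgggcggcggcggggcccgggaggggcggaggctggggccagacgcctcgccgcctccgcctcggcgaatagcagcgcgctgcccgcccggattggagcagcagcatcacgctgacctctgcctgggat
NRXN3 first start: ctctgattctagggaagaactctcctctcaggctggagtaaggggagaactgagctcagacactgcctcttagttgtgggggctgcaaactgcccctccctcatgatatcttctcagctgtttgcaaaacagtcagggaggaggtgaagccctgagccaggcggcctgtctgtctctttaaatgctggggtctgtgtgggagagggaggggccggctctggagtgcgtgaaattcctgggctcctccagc
NRXN3 inner start: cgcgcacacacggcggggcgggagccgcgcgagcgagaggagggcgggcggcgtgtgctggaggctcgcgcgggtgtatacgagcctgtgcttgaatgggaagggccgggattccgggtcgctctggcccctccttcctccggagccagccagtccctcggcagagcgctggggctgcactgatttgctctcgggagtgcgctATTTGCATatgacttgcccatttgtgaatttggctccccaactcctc
The UCK2 stretch and the inner NRXN3 stretch hold 24 CG dinucleotides each, more than 76.3% of the 35114 promoters of that length, and the first NRXN3 stretch holds 3, more than 22.9%. Both strands were searched for ACAATG and ACAAAG, short words of the SOX family, and for the POU octamer ATGCAAAT; the SOX words differ at the fifth base, so no site matches both. Of all promoters, 9.29% held ACAATG, 13.7% ACAAAG and 1.63% the octamer. Of the 12 promoters of these loci, 11 held none of the words, and the inner NRXN3 start held the octamer on the reverse strand. The peak lists are on hg19, so no peak was placed on these sequences.

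The level of H3K27ac in a window is the length covered by peaks, scaled so that every library has the same total of 51.0 Mb, the median of the 17 H3K27ac libraries. The lists hold positions and the authors' peak scores but no reads, so depth is unknown. H3K27ac lists held 16470 peaks (LK2 replicate 2) to 43480 peaks (NCI-H2887), and the covered length ranged from 24.6 Mb (LK2 replicate 2) to 73.7 Mb (HCC2450). The Brn2 list of NCI-H520 held 1298 peaks and that of LK2 4819. A library that lists less was also scaled up more, and the LK2 libraries are the ones scaled up most.

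In these windows LK2 and NCI-H520 stood above the other lines together. The 8 windows took 0.677% and 0.880% of the covered length in the LK2 libraries and 1.21% and 1.11% in the NCI-H520 libraries. In the other 11 lines the share ran from 0.0434% (HCC2814) to 0.168% (HCC2450). In 7 of the 8 windows both lines exceeded all 11 others, and the log2 difference of their mean from the mean of the 11 others, on log2(scaled bp + 1000 bp), ran from 2.26 at HIPK2 to 5.40 at NKD1 with a median of 3.56. NEBL was the exception. That count rests on the scaling. Unscaled, both LK2 libraries also lay below HCC2279 at HIPK2 (21.1 and 18.5 kb against 32.3). They lay below HCC2450 at NRXN3 (20.4 and 28.6 kb against 43.9) and at CADM1 (9.13 and 12.3 kb against 15.9).

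Among the adhesion and matrix genes, THSD4 had the longest covered length. It measured 107.7 and 150.4 scaled kb in LK2 and 210.1 and 202.0 in NCI-H520, against a lowest of 3.12, a median of 13.6 and a highest of 42.3 (NCI-H2887) in the 11 others. The groups did not overlap, and the lower of the 2 lines lay 3.05-fold above NCI-H2887. NRXN3 measured 35.7 and 59.2 scaled kb in LK2 and 107.1 and 75.7 in NCI-H520. The 11 others ran from 0 to 30.4 (HCC2450) with a median of 0.770, and 4 of them had no peak there. HCC2450 came within 1.56-fold of LK2, and the line next to it, Calu-1, had 8.91. These window levels came partly from different places. The highest HCC2450 bin, chr14:80050001-80100000, had 8.26 in HCC2450 and 0 in LK2 and NCI-H520. In chr14:79300001-79350000, LK2 had 15.9 and NCI-H520 38.2, and all 11 others had 0. CADM1 measured 16.0 and 25.4 scaled kb in LK2 and 19.7 and 17.2 in NCI-H520, so that the 2 lines overlapped each other. In the 11 others it ran from 0 to 10.97 (HCC2450) with a median of 0, and 6 of them had no peak. Of the HCC2450 length, 8.53 lay in chr11:115050001-115100000, where LK2 and NCI-H520 had 0.

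The cytoskeletal genes behaved unlike each other. SNTB1 measured 65.2 and 93.2 scaled kb in LK2 and 74.6 and 67.2 in NCI-H520, against 0 to 8.60 (NCI-H2887) with a median of 2.63 in the 11 others. The lower of the 2 lines lay 8.25-fold above the highest other line, and 3 others had no peak. NEBL measured 6.48 and 4.89 scaled kb in LK2 and 23.7 and 16.7 in NCI-H520. The 11 others ran from 0 to 11.4 (HCC2450) with a median of 1.81. Both LK2 libraries thus lay below HCC2450, and LK2, with a mean of 5.68, was close to HCC2814 with 5.30. Over the NEBL window as a whole, the data go against a description as most acetylated in both lines, since its level was highest in NCI-H520 alone. Part of the HCC2450 level lay elsewhere, as at chr10:21150001-21200000, with 5.53 scaled kb in HCC2450 and 0 in LK2 and NCI-H520. In chr10:21450001-21500000, which holds the higher end of the span, LK2 had 5.70 and NCI-H520 12.7. The highest other line there was HCC2814 with 4.02.

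Of the signalling genes and UCK2, NKD1 had the largest log2 difference of the 8 loci and HIPK2 the smallest. NKD1 measured 28.8 and 34.2 scaled kb in LK2 and 69.3 and 78.8 in NCI-H520. Of the 11 others, 8 had no peak in the NKD1 window, and the highest was LC-1/SQSF with 0.994. HIPK2 measured 37.0 and 38.3 scaled kb in LK2 and 57.1 and 55.9 in NCI-H520, against 3.42 to 23.1 (HCC2279) with a median of 9.17 in the 11 others. No line lacked HIPK2 peaks, and the lower of the 2 lines lay 1.63-fold above HCC2279. UCK2 measured 48.7 and 43.3 scaled kb in LK2 and 57.8 and 54.4 in NCI-H520, against 2.14 to 9.84 (HCC2450) with a median of 4.55, again with a peak in every line.

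**Figure D1:**
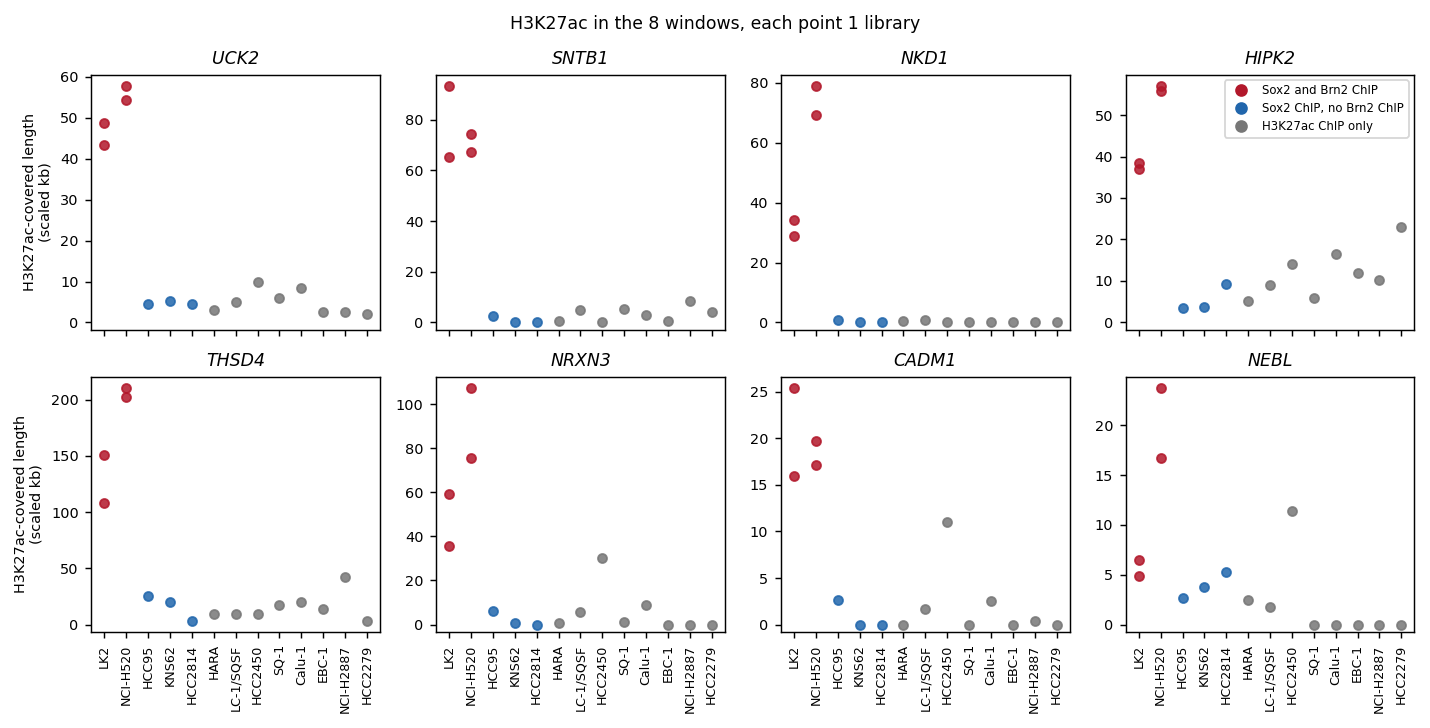
H3K27ac-covered length (scaled kb, linear axis from 0) in the 8 windows by line. Each point is 1 library, coloured by the ChIP experiments of the line. LK2 and NCI-H520 stand above the other 11 lines except at NEBL, where HCC2450 with 11.4 lies above both LK2 libraries.

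Of the 16 ends of the gene spans, 6 had a peak in 5 or more of the 13 lines, 1 in 2 lines, 2 in NCI-H520 alone and 7 in none. Within 2 kb of the higher-coordinate end of HIPK2, 13 of 13 lines had a peak, as at the lower end of UCK2. At the higher ends of NEBL, SNTB1 and CADM1 the count was 8, 7 and 6 of the 13 lines, and at the lower end of NKD1 it was 5 (HARA, HCC95, LC-1/SQSF, LK2 and NCI-H520). At the higher end of UCK2 only LK2 and NCI-H520 had one. The windows held 241 merged H3K27ac regions over the 13 lines. Of these, 24 were found in LK2 and NCI-H520 only, 88 in NCI-H520 only, 12 in LK2 only, 41 in one or both of them with other lines, 74 in other lines only and 2 in all 13. These make 9.96%, 36.5%, 4.98%, 17.01%, 30.7% and 0.830% of the regions, against 1.84%, 7.38%, 3.05%, 12.8%, 68.3% and 6.64% of the 114125 regions over the genome. The classes rest on the lines that chose the loci, so nothing is read from them. NKD1 had 19 of its 21 regions in NCI-H520 only. Exons, introns and untranslated regions were not assigned, because no annotation of the files' build was used here.

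In bins of 50 kb with a mean of at least 2000 bp over the 13 lines, 21 of the 88 member bins could be tested and both lines exceeded all 11 others in 14. That held for 598 of all 8770 bins (6.82%). The same contrast chose the loci, and a bin that passed the filter only through LK2 and NCI-H520 had to differ, so nothing is read from the count.

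A question the choice of loci did not answer was whether LK2 and NCI-H520 differ from each other in these windows. With bins of 50 kb, the member bins that passed the test were all lower in LK2. Of 31 member bins tested, 10 were called lower in LK2 and 0 higher (limma, adjusted p under 0.05 by Benjamini-Hochberg over all bins, 2 libraries per line). A bin entered the test by its mean over the 4 libraries. In 8 of the 10 the LK2 mean was under 2000 bp, so they entered through NCI-H520 and could only be lower in LK2, and in the other 2, both at THSD4, each line's mean was above it. With no such filter, 7 of 54 member bins were called, all lower in LK2. Of all 21535 bins without the filter, 921 were called (4.28%), 586 lower in LK2 and 335 higher. The direction of the count of member bins is therefore given as a description. Over all 8103 bins that passed the filter, 709 were lower in LK2 (8.75%) and 536 higher (6.61%). The median log2 difference, LK2 minus NCI-H520, was -1.04 over the member bins and 0.23 over all bins. Without scaling, all bins had a median of -0.56 and split into 157 higher and 1778 lower, and the member bins into 0 higher and 19 lower.

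Other bins of the same windows were not called. At THSD4 the bin chr15:71700001-71750000 measured 65.5 and 92.8 scaled kb in LK2 and 52.6 and 49.9 in NCI-H520, a log2 difference of 0.60 with a standard error of 0.25 (limma, adjusted p = 0.169). At chr15:72000001-72050000, LK2 measured 1.36 and 0 and NCI-H520 32.7 and 30.9, a log2 difference of -4.42 with a standard error of 0.45 (limma, adjusted p = 0.00777). The NCI-H520 values exceeded both LK2 values by far, and 4 further THSD4 bins were called, with log2 differences from -2.77 to -2.07. Of these, chr15:71900001-71950000 measured 5.93 and 8.27 scaled kb in LK2 and 33.7 and 31.6 in NCI-H520, and chr15:72050001-72100000 measured 0 and 0 against 5.58 and 4.01.

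NKD1 also held both kinds of bin. At chr16:50550001-50600000, which holds the lower end of the gene, LK2 measured 36.7 and 47.1 and NCI-H520 52.4 and 49.6 scaled kb, with a log2 difference of -0.29 (limma, adjusted p = 0.396). The following bin, chr16:50600001-50650000, measured 1.12 and 0 in LK2 and 21.5 and 28.2 in NCI-H520, a log2 difference of -4.14 with a standard error of 0.42 (limma, adjusted p = 0.00784). The next, chr16:50650001-50700000, was 0 in both LK2 libraries and 8.07 and 13.4 in NCI-H520 (limma, adjusted p = 0.00599).

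The other 3 called bins each lay at a different gene. At SNTB1, chr8:121700001-121750000 measured 0.543 and 0 scaled kb in LK2 and 8.58 and 8.22 in NCI-H520 (log2 difference -2.92, limma adjusted p = 0.00834), while the neighbouring chr8:121750001-121800000 measured 32.3 and 46.7 against 40.4 and 36.3 (log2 difference 0.02). At HIPK2, chr7:139400001-139450000 had a log2 difference of -1.65 (limma, adjusted p = 0.0289), and at NEBL chr10:21400001-21450000 had one of -2.15 (limma, adjusted p = 0.0299). No bin of UCK2, NRXN3 or CADM1 passed the threshold. Their main bins gave log2 differences of -0.19 with a standard error of 0.20 (UCK2), -1.28 with 0.36 (NRXN3, chr14:79300001-79350000) and 0.16 with 0.29 (CADM1). These calls needed all 4 libraries: with any 1 left out, 0 or 1 member bin was called, and without LK2 replicate 2 the test called 0 of all bins (1889 with an unadjusted p under 0.05).

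**Figure D2:**
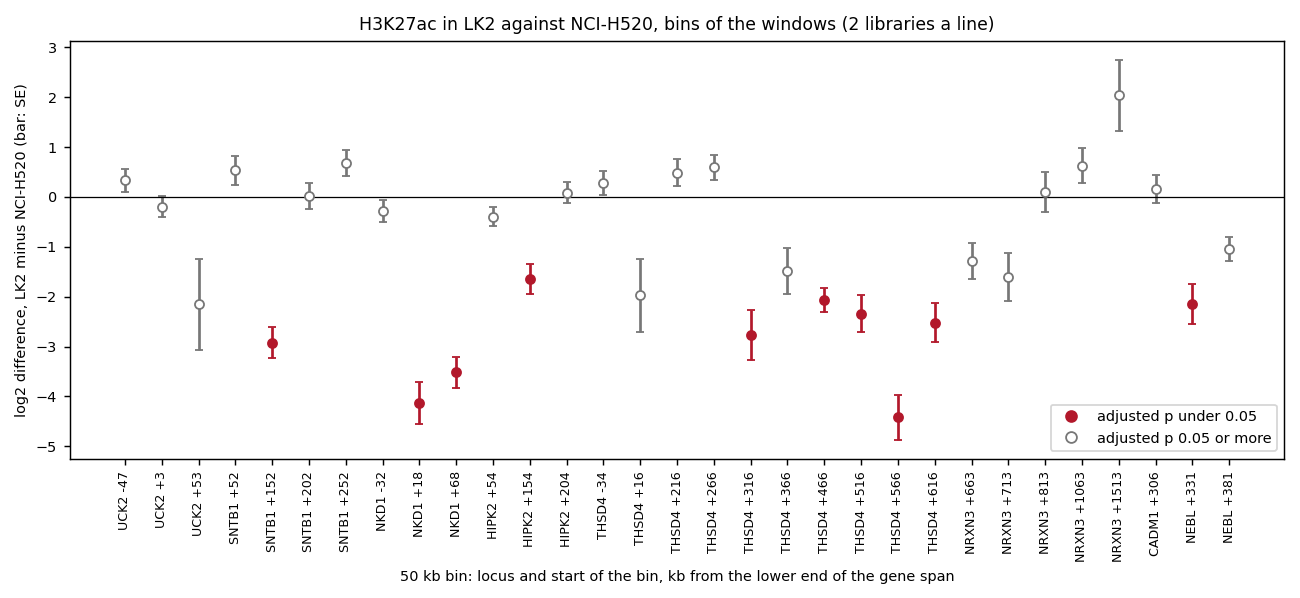
Log2 difference of H3K27ac, LK2 minus NCI-H520, in the 31 member bins tested, with standard errors. Filled points have an adjusted p under 0.05. All 10 filled points lie below 0, from -4.42 to -1.65.

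HCC95, KNS62 and HCC2814, the lines with Sox2 but no Brn2 ChIP-seq, were compared with the 8 lines with H3K27ac alone, a contrast the choice of loci did not use. The contrast says little about these loci. Of the 21 member bins tested, which entered by their mean over all 13 lines, 3 were at 0 in all 11 lines compared, and 7 member bins passed the filter on these 11 lines alone. None was called in either set of bins, and 0 of all 8770 bins were (0%, limma, adjusted p under 0.05, 3 lines against 8). An unadjusted p under 0.05 was reached by 3 member bins and 1043 of all bins. Among the member bins the difference that came closest was at NEBL, chr10:21450001-21500000, with means of 2.95 and 0.708 scaled kb (log2 difference 1.39, standard error 0.48, limma adjusted p = 0.356). That bin is not among the 7, so it entered the test only with LK2 and NCI-H520 in the mean. Of the 7, 1 reached an unadjusted p under 0.05 (limma), as did 1012 of all 8728 bins tested on the 11 lines alone. A p above the threshold does not show that the sets are alike.

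Sox2 peaks were dense in these windows in LK2 and NCI-H520. LK2 had 46 Sox2 peaks there, 1.13 per 100 kb and 4.51 times its genome-wide density. NCI-H520 had 81, 1.99 per 100 kb and 5.02 times its genome-wide density. In HCC95, KNS62 and HCC2814 the windows held 21, 11 and 7 peaks, 1.12, 0.921 and 0.695 times the genome-wide density of each list. Every window held a Sox2 peak in both LK2 and NCI-H520, from 1 (NKD1) to 11 (THSD4) peaks in LK2 and from 4 (UCK2) to 27 (THSD4) in NCI-H520, whereas UCK2, NKD1 and CADM1 held none in the other 3 lines. There is 1 Sox2 list per line, so these densities carry no replicate error. The windows were picked for acetylation in LK2 and NCI-H520, where 39.5% and 60.9% of all Sox2 peaks overlapped H3K27ac of the line. The loci were also partly known for their Sox2 peaks. The densities and their gap to the other 3 lines are therefore descriptive. THSD4 held 15 of the 21 HCC95 peaks and 7 of the 11 KNS62 peaks.

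Many Sox2 peaks of the windows lay at the same places in the 2 lines. Of the LK2 Sox2 peaks in the windows, 30 of 46 (65.2%, Wilson 95% interval 50.8 to 77.3%) overlapped an NCI-H520 Sox2 peak, against 39.1% of all LK2 Sox2 peaks. Of the NCI-H520 peaks, 31 of 81 (38.3%, 28.4 to 49.2%) overlapped an LK2 peak, against 25% of all. The 30 overlapping pairs had a median distance between midpoints of 70.3 bp and a largest of 302 bp. Overlap with Sox2 of HCC95, KNS62 or HCC2814 was found for few peaks. It was 3 of 46 for LK2 (6.52%, 2.24 to 17.5%, against 26.8% of all) and 2 of 81 for NCI-H520 (2.47%, 0.680 to 8.56%, against 20.2% of all). The intervals cover counting error only, and peaks of 1 locus are not independent, so the shares were not tested against those over the genome. The windows were picked for acetylation in LK2 and NCI-H520 over the other lines, so these shares are descriptive.

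Most of this Sox2 lay inside acetylated chromatin. In LK2, 37 of 46 Sox2 peaks (80.4%) overlapped H3K27ac of the line, against 39.5% of all its Sox2 peaks, and in NCI-H520 75 of 81 (92.6%) did, against 60.9%. The windows were picked for acetylation in these lines, so these shares are descriptive. HCC95, KNS62 and HCC2814 were among the other lines of that choice, so their shares are descriptive as well. In HCC95 the share was 12 of 21 (57.1%), against 56.1% of all its Sox2 peaks. In KNS62 it was 5 of 11, against 60.6% of all, and in HCC2814 2 of 7, against 38.3%.

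In LK2, NCI-H520, LK2_DNp63 and HCC2814 the highest-scoring Sox2 peak of the windows lay in THSD4, and in LK2_GFP it lay in SNTB1 (score 827.77). In HCC95 it lay in HIPK2 (335.05) and in KNS62 in NEBL (205.56). In NCI-H520 the peak chr15:71926833-71927620 had the authors' score of 774.55 and rank 14 of 12048. HCC95, HCC2814, LK2, LK2_GFP and LK2_DNp63 also had a Sox2 peak there, yet of the 13 lines only LK2 and NCI-H520 had H3K27ac at it. In LK2 the highest was chr15:71721016-71722290, with a score of 526.43 and rank 25 of 7611. SNTB1 held rank 44 of NCI-H520 (chr8:121774221-121774984, score 627.77) and NRXN3 rank 51 of LK2 (chr14:79359148-79359976, score 451.42). The LK2 peak of highest score at NKD1, chr16:50572913-50573650, ranked 5863, and the NCI-H520 peak at the same place, chr16:50573013-50573671, ranked 963.

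Brn2 peaks were fewer and fell in only some of the windows. Brn2 chromatin was also cross-linked with disuccinimidyl glutarate and digested with micrococcal nuclease, so its lists and those of Sox2 come from different preparations. LK2 had 21 Brn2 peaks in the windows, 3.25 times its genome-wide density, of which 9 were at THSD4, 5 at SNTB1, 5 at CADM1 and 2 at NRXN3. UCK2, NKD1, HIPK2 and NEBL had 0 in LK2. NCI-H520 had 4 (2 at THSD4, 1 at SNTB1 and 1 at NRXN3), 2.30 times its genome-wide density.

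Of the 21 LK2 Brn2 peaks, 16 (76.2%, Wilson 95% interval 54.9 to 89.4%) overlapped an LK2 Sox2 peak, against 39.9% of the 4819 LK2 Brn2 peaks. For NCI-H520 it was 2 of 4 (50%, 15 to 85%), against 18.2% of 1298. At SNTB1 all 5 LK2 Brn2 peaks overlapped Sox2, as did both at NRXN3, 6 of 9 at THSD4 and 3 of 5 at CADM1. Of the 21, 15 also overlapped an NCI-H520 Sox2 peak (71.4%, against 27.3% of all). Because the windows were picked for acetylation in LK2 and NCI-H520, the Brn2 densities and shares are descriptive too.

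Only 2 sites in the windows had Sox2 and Brn2 in both LK2 and NCI-H520. One lies in THSD4, where the LK2 Brn2 peak is chr15:71730997-71731557 with a score of 142.58. H3K27ac covered it in LK2, NCI-H520, HCC2450 and Calu-1. The other lies in SNTB1, chr8:121787373-121787877 with a score of 161.82, and of the 13 lines it was acetylated in LK2 and NCI-H520 only. In LK2_DNp63 the THSD4 site had neither Sox2 nor H3K27ac, and the SNTB1 site kept both.

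**Figure D3:**
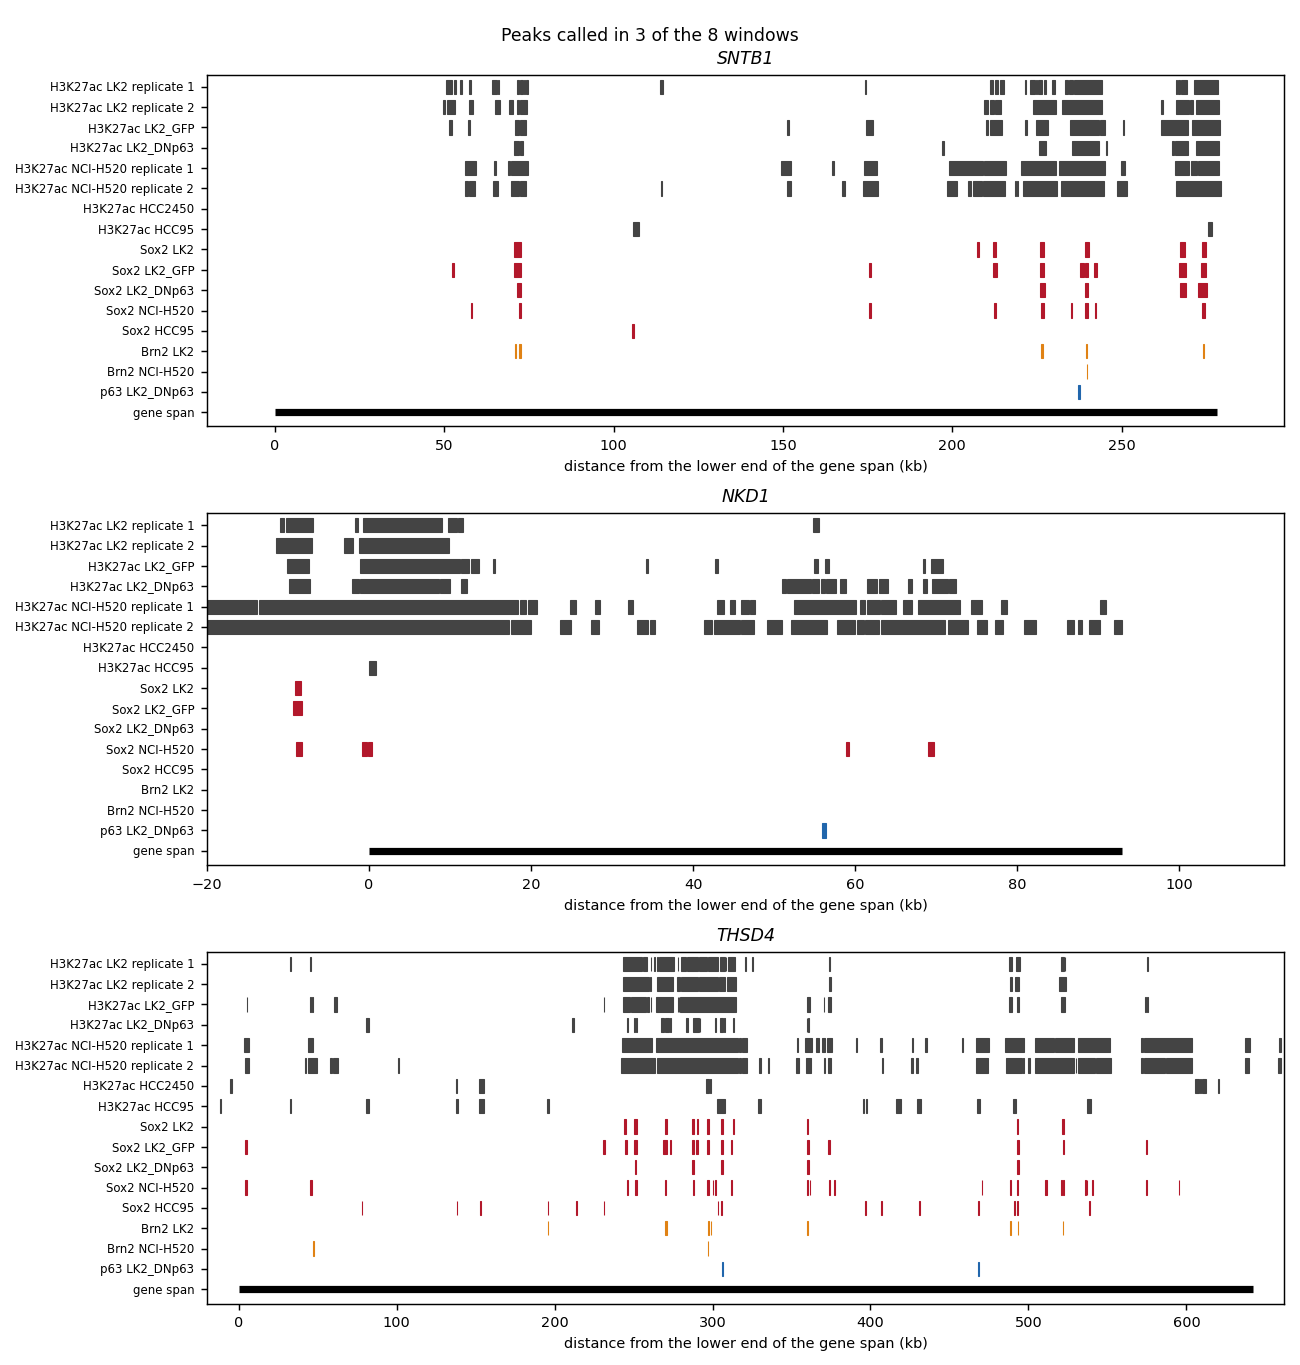
Peaks called across the SNTB1, NKD1 and THSD4 windows, with distance in kb from the lower end of the gene span on the x axis and 1 list per row. Bars are called peaks (grey H3K27ac, red Sox2, orange Brn2, blue p63). NCI-H520 has long H3K27ac stretches in the last part of THSD4 and inside NKD1 where LK2 covers less.

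**Figure D4:**
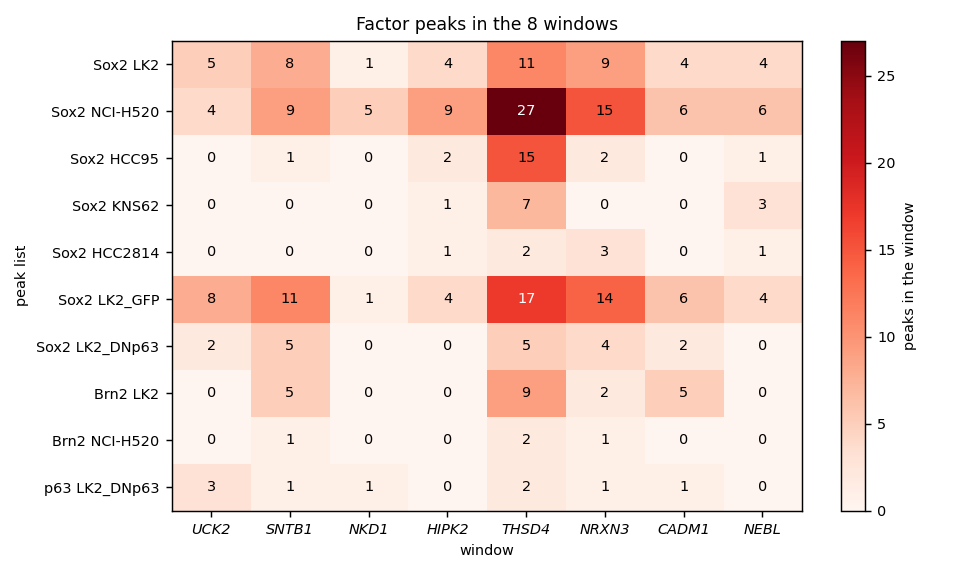
Number of Sox2, Brn2 and p63 peaks (rows, 1 list each) in each window (columns). THSD4 holds the most Sox2 peaks in LK2 (11) and NCI-H520 (27), and Brn2 of LK2 falls in THSD4, SNTB1, CADM1 and NRXN3.

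LK2_DNp63 was set beside LK2_GFP to compare these loci between the p63 derivative and the GFP derivative. There was 1 library per arm, so there is no test, and the LK2 libraries are given as a guide to spread. Both are derivatives of LK2, one of the lines by which the windows were picked. H3K27ac was lower in LK2_DNp63 at THSD4, NRXN3 and UCK2 by more than 2-fold, while the NKD1 and CADM1 windows as a whole were not lower.

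NRXN3 had 63.8 scaled kb in LK2_GFP and 10.7 in LK2_DNp63, a log2 difference of -2.47, with 35.7 and 59.2 in LK2. THSD4 had 112.7 and 28.8, a log2 difference of -1.93, with 107.7 and 150.4 in LK2. UCK2 had 67.8 and 29.7, a log2 difference of -1.16, with 48.7 and 43.3 in LK2. In all 3 windows LK2_DNp63 lay below LK2_GFP and both LK2 libraries. SNTB1 with 61.7 and 34.7 (log2 difference -0.81) and HIPK2 with 27.1 and 18.9 (-0.50) also lay below all of them, by less than 2-fold. NKD1 had 31.6 in LK2_GFP and 39.3 in LK2_DNp63 (log2 difference 0.30), above the 28.8 and 34.2 of LK2. CADM1 with 19.5 and 20.9 (0.10) and NEBL with 7.85 and 4.93 (-0.58) stayed within the range of the LK2 and LK2_GFP libraries.

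In bins, 10 of 26 member bins tested were at least 2-fold lower in LK2_DNp63 and 1 was at least 2-fold higher. Over all 8622 bins, 3.92% were lower and 4.37% higher by that fold. The median log2 difference was -0.58 over the member bins and -0.01 over all. A bin entered by a mean of at least 2000 bp over LK2_GFP and LK2_DNp63. Some lower bins were under that length in LK2_DNp63, so they entered through LK2_GFP and could only be lower. They were chr14:79300001-79350000, chr14:80150001-80200000 and chr15:71900001-71950000, each with 0 in LK2_DNp63, and chr15:71400001-71450000 with 1.44 scaled kb. The counts are therefore a description. The NRXN3 bin chr14:79300001-79350000 had 28.8 scaled kb in LK2_GFP, 10.6 and 21.3 in LK2, and 0 in LK2_DNp63. The THSD4 core, chr15:71700001-71750000, went from 66.9 in LK2_GFP to 19.5, with 65.5 and 92.8 in LK2. The bin that was higher lies in NKD1, chr16:50600001-50650000, with 2.63 in LK2_GFP, 1.12 and 0 in LK2, and 13.7 in LK2_DNp63. It is one of the 2 NKD1 bins that were lower in LK2 than in NCI-H520.

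Peak by peak, 67 of the 185 LK2_GFP H3K27ac peaks in the windows (36.2%, Wilson 95% interval 29.6 to 43.4%) overlapped an H3K27ac peak of LK2_DNp63, against 73.5% of all. By locus the share ran from 8 of 40 at NRXN3 (20%) to 10 of 13 at CADM1 (76.9%). The same 185 peaks overlapped LK2 replicate 1 in 58.9% and replicate 2 in 49.2%, against 68.5% and 49.1% of all LK2_GFP peaks, and their median score was 130.81 against 157.7. Of the 103 LK2_DNp63 peaks in the windows, 24 (23.3%) were not in LK2_GFP, against 26.6% of all, and 11 of the 24 lay at NKD1.

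**Figure D5:**
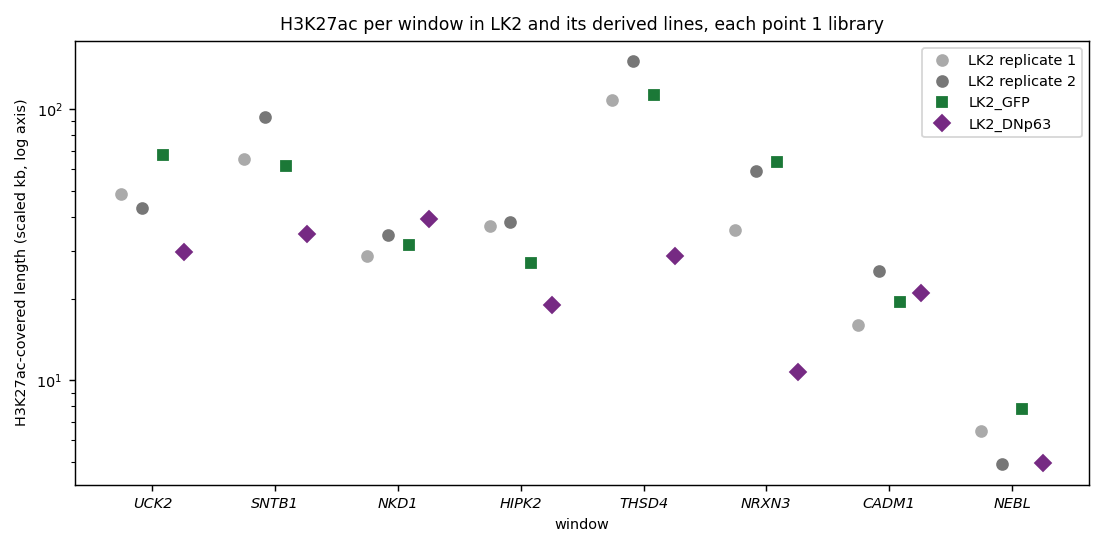
H3K27ac-covered length per window (scaled kb, log axis) in 2 LK2 libraries, LK2_GFP and LK2_DNp63, each point 1 library. LK2_DNp63 lies below the other 3 libraries at UCK2, SNTB1, HIPK2, THSD4 and NRXN3 and above them at NKD1.

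The Sox2 lists of the derivatives gave another picture. LK2_GFP had 65 Sox2 peaks in the windows and LK2_DNp63 18. Of the 65, 18 (27.7%, Wilson 95% interval 18.3 to 39.6%) overlapped a Sox2 peak of LK2_DNp63, against 29.2% of the 12034 LK2_GFP Sox2 peaks, so the share in the windows was close to that over the genome. The LK2_DNp63 list was shorter as a whole, with 4217 peaks. Peaks that were kept had a median LK2_GFP score of 321 and those not kept 82.6 (157 and 75.6 over all peaks). None of the 18 LK2_DNp63 Sox2 peaks in the windows was absent from LK2_GFP (0 of 18, an upper Wilson bound of 17.6%), against 17.6% of all.

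Kept Sox2 peaks lay at SNTB1 (5), THSD4 (5), NRXN3 (4), UCK2 (2) and CADM1 (2), and NKD1, HIPK2 and NEBL had 0 in LK2_DNp63. At NKD1 the Sox2 peak, chr16:50572913-50573650 in LK2, was not called in LK2_DNp63, while acetylation of the window as a whole was not lower. The bin that holds this peak, chr16:50550001-50600000, was lower. It had 33.4 scaled kb in LK2_GFP, 36.7 and 47.1 in LK2, and 26.8 in LK2_DNp63. At THSD4, Sox2 of LK2_DNp63 had a peak at chr15:71926765-71927897 with a score of 334.13 and rank 49. H3K27ac was called there in LK2_GFP but not in LK2_DNp63. The NRXN3 site chr14:79511406-79512402 had the same pattern.

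The p63 list of LK2_DNp63 had 9 peaks in the windows, 2.13 times its genome-wide density, with 3 at UCK2, 2 at THSD4 and 1 each at SNTB1, NKD1, NRXN3 and CADM1. The highest-scoring, THSD4 chr15:71739709-71740607 (score 301.92, rank 66 of 3159), lay at a place acetylated in 10 of 13 lines and with Sox2 in LK2, HCC95, KNS62, LK2_GFP and LK2_DNp63. The NKD1 peak, chr16:50637908-50638463, lay in the bin whose acetylation was higher in LK2_DNp63. The CADM1 peak, chr11:115108703-115109510, was acetylated in 0 of the 13 lines and not in LK2_GFP, and was acetylated in LK2_DNp63. Of the 9 p63 peaks, 5 (55.6%) overlapped H3K27ac of LK2_DNp63, against 47.7% of all 3159. H3K27ac of LK2_GFP also overlapped 5, against 29.3% of all. They were not the same peaks: UCK2 had 1 in LK2_DNp63 and 2 in LK2_GFP, and CADM1 had 1 and 0. The windows were picked for acetylation in LK2, so these shares are descriptive. The part of p63 in the acetylation of these windows was not tested.

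Profiles over the 13 lines were compared by Pearson's r of log2 levels, as a description over 13 points that share libraries and scaling. The loci were picked for high levels in LK2 and NCI-H520, both among the 13. High r between them, or with their mean profile, was therefore built into the choice, and nothing is read from its size. The most alike of the loci were NRXN3 and CADM1 (r = 0.973). UCK2 was most like NRXN3 (0.899), NKD1 most like UCK2 (0.896), SNTB1, THSD4 and HIPK2 most like NKD1 (0.847, 0.810 and 0.708), and NEBL most like NRXN3 (0.681), the lowest of the 8. Outside the windows, the bins most like the mean profile of the loci were chr5:33600001-33650000 (r = 0.968), chr1:183000001-183050000 (0.955) and chr2:97600001-97650000 (0.954). The first measured 26.6 scaled kb in LK2 and 27.4 in NCI-H520, with 1.10 in the highest other line.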

How the data were processed

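H3K27ac, Sox2, Brn2 and p63 ChIP-seq peaks were taken from 27 deposited lists, 1 per library. The labels name 43 samples; the 16 inputs were not analysed here. The submitters' processing notes name Bowtie2 as the tool and hg19 (GRCh37) as the build, with no version. Peak names begin with MACS; the sources used here give neither the caller's version or threshold nor whether inputs entered the calls. The score in each deposited list is the authors' own value, starts at 50 and was used for ranks inside 1 list. Of 652792 peaks, 2092 lay outside chromosomes 1 to 22 and X and were left out.

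Peaks were merged per library, and covered lengths were scaled to the median total of 51.0 Mb. Bins of 50 kb with a mean of at least 2000 bp were tested on log2(scaled bp + 1000 bp) with limma 3.58.1 (R 4.3.3; mean-variance trend, Benjamini-Hochberg over all bins, threshold 0.05); fold changes on that scale understate changes of short lengths. LK2 and NCI-H520 replicates were averaged per line in the comparison of 13 lines. Overlap means 1 bp or more; shares carry Wilson 95% intervals for counting error. The fit of LK2 against NCI-H520 was checked on simulated data, and the fit over 13 lines was not. Depth is unknown, so no precision from reads can be given.

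The loci, gene spans, lists and tests were chosen with earlier results of these data known. Text names all 8 loci, called member bins (at most 10 per test), sites with both factors in both lines, the highest-scoring Sox2 peaks and the most alike bins and loci; the p63 sites, the Sox2 sites without acetylation and the uncalled core bins were singled out after their values were seen. Alternatives covered scaling, peak number, flanks, pseudocount, bin size, overlap and left-out libraries. RefSeq promoters are from GRCh38.p14. Other genes of the same pathways were not analysed here.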

Additional observations from a re-analysis of the deposited data

Results flagged for a closer look

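Among the 8 lines with H3K27ac ChIP-seq alone, 1 line lay far above the other 7 in 4 of the 8 windows, by a gap to its neighbour larger than Dixon's critical share of the range (0.526 for 8 values). That critical value flags about 1 in 20 groups of independent normal values. Here several of the 8 lines were at 0 at NRXN3, CADM1 and NEBL, so that rate does not hold. Flags of the same line also rest on the same library. At THSD4, NCI-H2887 had 42.3 scaled kb and the line next to it 20.1. The other 3 were HCC2450: 30.4 scaled kb at NRXN3 with 8.91 in the next line, 10.97 at CADM1 with 2.53, and 11.4 at NEBL with 2.47. In each of these 3 windows, part of the HCC2450 length lay in bins where LK2 and NCI-H520 had 0. HCC2450 had a covered length of 73.7 Mb before scaling, the longest of all libraries.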

How the results depend on the processing

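The median log2 difference of LK2 and NCI-H520 from the other 11 lines stayed above 0 under all 19 alternatives. It lay between 3.41 and 3.69 with each LK2 or NCI-H520 library left out in turn, and none of the other 11 lines was left out. It was 2.97 without scaling, 3.89 with equal numbers of top peaks, 4.34 with a pseudocount of 200 bp and 2.85 with 5000 bp.

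For LK2 against NCI-H520, the called member bins (10) were 19 of 29 without scaling (65.5%, against 33.2% of all bins), 6 of 26 with equal numbers of top peaks (23.1%, against 13.7%), 21 of 56 with bins of 25 kb (37.5%, against 16.3%) and 5 of 19 with bins of 100 kb (26.3%, near the 20.1% of all bins). At 25 kb, 1 of the 21 was higher in LK2. Leaving out each library in turn gave 0 to 1, a lone library being assumed to vary like the others. Deviations of same-numbered libraries of the 2 lines correlated at -0.17 over 8103 bins, so the numbers were not taken to pair them. With the replicate block, 9 member bins were called (878 of all bins), and with the numbers crossed, an alternative chosen after seeing the data, 17, of which 1 was higher in LK2 (1937 of all bins). No member bin was called in the comparison of the other lines under any alternative run, among them leaving out each line, while all bins gave up to 47 calls (without LC-1/SQSF).

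With bins of 25 kb, 17 of 44 member bins were at least 2-fold lower in LK2_DNp63 and 5 at least 2-fold higher, against 4.59% and 5.93% of all bins. These bins also entered by their mean over both libraries, so the counts are a description. The window difference at CADM1 became -0.14 with equal numbers of top peaks and -0.27 against LK2 replicate 2, and that at NEBL 0.0097 against LK2 replicate 2; the cause was not tested. The share of LK2_GFP Sox2 peaks kept in the windows was 62.1% (18 of 29) when both lists held equal numbers of top peaks. The share over the genome at that cut was not computed, so nothing about the windows is read from the rise. The NCI-H520 Sox2 density became 1.01 per 100 kb with equal numbers of top peaks, 7.25 times the genome-wide density. Without read counts, a peak missing from a list may have fallen under the caller's threshold, and this limit holds for every list.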
